A study of Mus musculus with 21 samples.

Results

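The cytosolic ribosomal protein genes were examined in mature and immature conventional dendritic cells (cDCs) of the thymus and spleen of C57BL/6 mice. They were chosen by name, as the genes named Rpl or Rps followed by a number with its usual suffixes, the 3 stalk genes Rplp0, Rplp1 and Rplp2, and Rpsa. The name rule matched 84 of 37734 gene rows. One of these, named Rpl24, carries the identifier ENSMUSG00000022601, which GENCODE M21 assigns to the zinc finger gene Zbtb11, and it was left out. The remaining 83 genes comprised 33 of the small (40S) subunit and 50 of the large (60S) subunit, and 82 of them passed the filter on low values, a normalized reads count of at least 10 in at least 3 samples. The 83rd, Rpl10l, was at 0 reads in every library. Rps12l1 is annotated as a processed pseudogene and all of its sequence is shared with other genes.

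A ribosome is built from ribosomal RNA and a set of ribosomal proteins. Their mRNAs are among the most abundant of any cell. They start with an oligopyrimidine tract (5′ terminal oligopyrimidine, TOP), through which the growth regulator mTOR controls their translation, so that mRNA level and protein output can diverge. Several of the genes have a diverged paralogue whose product can take the same place in the ribosome.

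The mice of every group were 6 to 8 weeks old, with no genetic modification or treatment given in the labels. CD11c+ cells were enriched with magnetic beads and FACS-sorted as cDC1 (CD24+ CD11b-) or cDC2 (CD24- CD11b+), and as immature (CCR7- Esam-) or mature (CCR7+ Esam+), and the libraries were made from cells pooled from several mice. The 21 libraries formed 6 groups. The immature splenic cDC1 had 5 libraries, the immature thymic cDC1 had 4, and the splenic cDC2 and the remaining thymic groups (immature cDC2, mature cDC1 and mature cDC2) had 3 each. Mature splenic cells were not among the groups, so that maturation was compared in the thymus alone and tissue in immature cells alone. The comparisons share groups (immature thymic cDC1, for example, enter the comparisons of maturation, tissue and subset), so that their values are given side by side and not as independent evidence. Splenic cDC1 replicates 4 and 5 carry the same leading number, index and lane in the labels and differed far less than any other pair (chi-square per degree of freedom 2.53 against 26.9 to 190), so they were combined, leaving 20 samples. Splenic cDC1 replicate 1 carries the same leading number, 2, in lane 5. It differed from replicates 4 and 5 by 58.7 and 51.5 and was kept as a separate sample. It may thus not come from a separate pool of mice.

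Each library held 14266867 to 40119669 gene reads. All 5 mature DC marker genes (Ccr7, Esam, Fscn1, Ccl22 and Cd40) rose with maturation in both subsets. Ccr7 and Esam encode the markers of the sort, so that their rise was set by the design. Immature thymic cDC1 replicates 3 and 4 also share leading number, index and lane, but they differed by a chi-square of 100 per degree of freedom and were kept as separate samples. The labels do not say whether other samples came from separate animals, so that p-values measure the spread between these samples.

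To show the sequence around the starts of the genes on which the results turn, 100 bases before to 15 bases from the RefSeq start are given below (GRCm38.p6, 5′ to 3′ on the strand of the gene). Capitals mark the longest unbroken run of C and T that overlaps the 10 bases before to the 15 bases from the start. Rps27l (chr9:66945986-66946100, plus strand) and Rps27 (chr3:90213634-90213748, minus strand) are paralogues, Rpl39l (chr16:10170128-10170242, plus strand) is the paralogue of Rpl39, and Rpl4 (chr9:64173287-64173401, plus strand) had the largest fall with maturation in cDC1.
Rps27: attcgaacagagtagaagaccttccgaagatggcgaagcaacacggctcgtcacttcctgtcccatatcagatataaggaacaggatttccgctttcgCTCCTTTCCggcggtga
Rps27l: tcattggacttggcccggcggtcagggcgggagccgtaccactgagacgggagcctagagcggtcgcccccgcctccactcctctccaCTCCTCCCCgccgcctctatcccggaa
Rpl39l: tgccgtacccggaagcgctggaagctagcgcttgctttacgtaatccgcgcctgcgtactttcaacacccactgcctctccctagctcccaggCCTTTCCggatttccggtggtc
Rpl4: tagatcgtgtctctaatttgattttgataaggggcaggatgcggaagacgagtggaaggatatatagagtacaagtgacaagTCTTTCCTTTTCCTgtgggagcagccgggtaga

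Of the 83 genes, 62 had a RefSeq promoter entry of 300 bases, from 250 before the start to 50 after it. A run of at least 8 pyrimidines overlapped the start window in 28 of the 62, or 45.2%, against 15.2% of 27025 genes. The letters CTTTCC, read on either strand, were found in 29 of the 62 (46.8%, against 26.3% of all promoters), and CCGGAAG, the core of an ETS factor site, in 25 (40.3%, against 9.12%). CACGTG, the core of the E-box bound by Myc and Max, was found in 5 (8.06%, against 7.24%). None of these letter strings contains another. CTTTCC can lie within a pyrimidine run, as it does in the marked runs of Rps27, Rpl39l and Rpl4, so that these counts can share bases. The matches describe these windows and not binding of a factor.

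Compared per kilobase of transcript, the levels spanned a wide range. The mean over the 6 groups was highest for Rps27, at 73101 normalized reads per kilobase, and among the highest were also Rps29 (49686), Rplp1 (40807) and Rps9 (40576). The 3 stalk genes lay at ranks 4, 21 and 24 of 83. The lowest of the tested genes were Rpl7l1 at 1495, Rpl13a at 431, Rps12l1 at 80.9, Rpl39l at 23.4 and Rpl3l at 4.25 per kilobase. The paralogue Rps27l, at 8457, was at rank 74. Of the 100-base windows of its transcript, Rpl13a shares 55.2% with other genes, and the share was above 50% in 32 of the 83 genes, whose values are uncertain to that extent. The order of levels was not tested.

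The ribosomal protein genes together took 3.57% to 8.12% of the reads of a sample. In splenic cDC1 they took 5.55% to 7.47%, in immature thymic cDC1 4.80% to 8.12% and in mature thymic cDC1 3.57% to 4.11%. All 3 samples of mature cDC1 were thus below all 4 samples of immature thymic cDC1 in this share. In cDC2 the groups overlapped, with 5.08% to 7.02% in the spleen, 4.83% to 5.87% in immature thymic cells and 3.86% to 5.86% in mature thymic cells. A share is scaled to the library total, which moved the median of all genes by -0.29 in cDC1 maturation. Summed as normalized reads, the thymic cDC1 groups overlapped, at 972595 to 1.24e+06 in mature and 1.11e+06 to 1.98e+06 in immature samples.

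**Figure D1:**
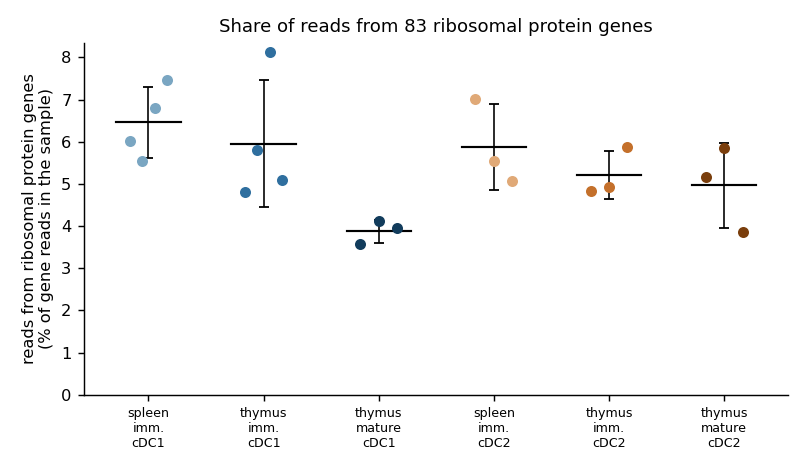
Reads from the 83 ribosomal protein genes as a percentage of all gene reads, 1 point per sample, with the group mean (line) and SD (bar); imm., immature. Mature thymic cDC1 lay at 3.57% to 4.11%, below all other thymic cDC1 samples, and immature thymic cDC1 replicate 3 was the highest of all, at 8.12%. Summed as normalized reads, mature and immature thymic cDC1 samples overlapped.

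Immature thymic cDC1 replicate 3 was the sample with the highest share, and the other 3 samples of its group held 4.80%, 5.79% and 5.09%. Results that rest on this group are given with and without it where its removal changed a call or moved a count by over 1.5 times.

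Upon maturation in thymic cDC1, the ribosomal protein genes fell more often than they rose, but by small amounts and at about the frequency of all genes. By limma (adjusted p below 0.1), 30 genes fell and 6 rose. This is 36.6% lower and 7.32% higher, against a background of 33.7% lower and 30.4% higher among the 14970 genes tested, so that the share that fell was near that of genes at large and the share that rose was below it. The median log2 fold change of the 82 genes was -0.31, against -0.04 for all genes, and 66 of the 82 had a negative value. The median log2 value of these genes had a pooled SD between samples of 0.34. The genes come from the same samples, so that the counts of signs here and below are not independent observations. Falls beyond 2-fold were seen in 5 genes (against 24.5% of all genes) and rises in 3 (against 21.3%). In 19 genes every mature sample was below every immature one (against 28.1% of all genes), and in 3 every one was above (against 27.3%). In lane 8 alone, which held all mature samples, the median over the 82 genes was -0.41. Scaled to the library total, 58 genes fell and 3 rose. This rescaling moved the median of all genes by -0.29, and relative to that shift the median of the 82 genes was -0.33. With the deposited values and without immature thymic cDC1 replicate 3, the median of the 82 genes was -0.13, and 20 fell and 8 rose. Without immature replicate 1 or 2 or mature replicate 2, 3 rose, and without mature replicate 1, 20 fell and 5 rose.

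Among the largest falls were those of Rpl4, Rpl8 and Rpl10a. Rpl4 (ENSMUSG00000032399, chr9:64173375-64178666), whose product lines the tunnel through which the nascent peptide leaves the ribosome, was at 44097, 47034, 65525 and 42698 in immature and 16393, 18422 and 22683 in mature cDC1 samples. Every mature sample was below every immature one, and the log2 fold change was -1.37 ± 0.18 (SE, adjusted p = 1.26e-06). Rpl8, next to the peptidyl transferase centre, fell by 1.16 ± 0.31 on the log2 scale (adjusted p = 0.00321), and Rpl10a, the protein of the L1 stalk, fell by 1.10 ± 0.26 (adjusted p = 0.00121). Rpl10a shares 87.1% of its 100-base windows with other genes, whereas Rpl4 shares 5.14% and Rpl8 1.73%.

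Rps6, the substrate of S6 kinase, was at 19287 to 32363 in immature and 12926 to 18209 in mature cDC1 (-0.69 ± 0.19, adjusted p = 0.00339). Rpl5, which with Rpl11 and 5S RNA forms a complex that can bind Mdm2, fell by 0.65 ± 0.18 without overlap (adjusted p = 0.00324), but Rpl11 did not pass the test (-0.14 ± 0.21, adjusted p = 0.597). Of the stalk genes, which recruit elongation factors to the 60S subunit, none passed in cDC1, with values of -0.43 for Rplp0, -0.30 for Rplp1 and -0.02 for Rplp2. Rpsa, a 40S protein also known as a laminin receptor, did not pass either (-0.17 ± 0.23).

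By subunit, 9 of 33 genes of the 40S subunit (the pseudogene Rps12l1 among the 33) fell and 4 rose in mature cDC1, with a median of -0.30. Of 49 genes of the 60S subunit, 21 fell and 2 rose, with a median of -0.32. Among all genes, 33.7% fell and 30.4% rose, and a difference between the subunits was not tested. By transcript length, of the 27 genes with the longest transcripts (878 to 3706 bases), 14 fell and 1 rose, with a median of -0.52, whereas 5 of the 28 shortest (271 to 570 bases) fell and 3 rose, with a median of -0.19. No share of all genes of like length is given beside these counts. Over the 82 genes, Spearman's rho between transcript length and the fold change was -0.28, a description in which all genes come from the same samples. With a correction for gene length and GC content across all genes, 26 fell and 10 rose, and no share of all genes is given with it.

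The 6 genes that rose in mature cDC1 were Rpl39l, Rps27l, Rps27, Rpl39, Rps19 and Rps24. These are both members of the Rps27 pair, both of the Rpl39 pair and 2 further genes of the 40S subunit. Rps24, another 40S protein, rose by a log2 fold change of 0.55 ± 0.26 (adjusted p = 0.0726) and did not pass in cDC2 (0.35 ± 0.27).

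In mature thymic cDC2, by contrast with cDC1, more genes rose than fell. By limma, 14 rose (17.1%, against 27.7% of all genes) and 3 fell (3.66%, against 25.5%), so that both shares were below those of genes at large. The median log2 fold change was 0.18, against 0.04 for all genes, with 56 positive and 26 negative values. Between mature and immature cDC2, 11 genes were higher in every mature sample (against 31.1% of all genes) and 4 lower in every one (28.8% of all genes). Rises beyond 2-fold were seen in 5 genes (against 18.6%) and falls in 0 (against 17%). Scaled to the library total, 7 rose and 16 fell. This rescaling moved the median of all genes by -0.30, and relative to that shift the median of the 82 genes was 0.17, compared with -0.33 in cDC1, where it moved all genes by -0.29. In lane 8 alone, with 3 mature and 2 immature samples, the median was 0.13.

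The counts in cDC2 depended on single samples. Without mature cDC2 replicate 3, which had the lowest share of ribosomal protein reads of its group, 26 rose and 2 fell. Without mature replicate 1, 9 rose and 2 fell. Leaving out immature thymic cDC1 replicate 3, which is not in this comparison but in the shared estimate of the spread, gave 22 and 4.

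Apart from Rpl39l and Rps27l, the largest rises in cDC2 were in Rps19, Rplp2 and Rpl39. Rps19, a 40S protein frequently mutated in Diamond-Blackfan anaemia, was at 12048, 9328 and 16991 in immature and 37124, 44835 and 20375 in mature cDC2, with no overlap (1.38 ± 0.31, adjusted p = 0.000977). Mature replicate 3 lay nearest the immature samples. Rplp2, a stalk protein, was at 8336, 7852 and 10810 in immature and 23145, 27595 and 11633 in mature cDC2 (1.13 ± 0.34, adjusted p = 0.00999), and mature replicate 3 was again the lowest of its group. Rpsa was at 31322 to 41265 in immature and 64410 to 72119 in mature cDC2 (0.91 ± 0.25, adjusted p = 0.00454), and here the 3 mature samples were close together. Rps9, Rpl36, Rpl19, Rpl34, Rpl27a, Rpl9 and Rpl17 rose by 0.49 to 0.76 on the log2 scale. In Rpl36, Rpl19 and Rpl34, mature replicate 3 lay within or below the range of the immature samples, so that the groups overlapped. For Rpl36 it was at 3619, against 3672 to 4310 in immature samples. The Rpl17 call was lost under 8 of 35 alternatives. Rpl7l1 and Rpl4 were among the genes that fell, and both also fell in cDC1.

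**Figure D2:**
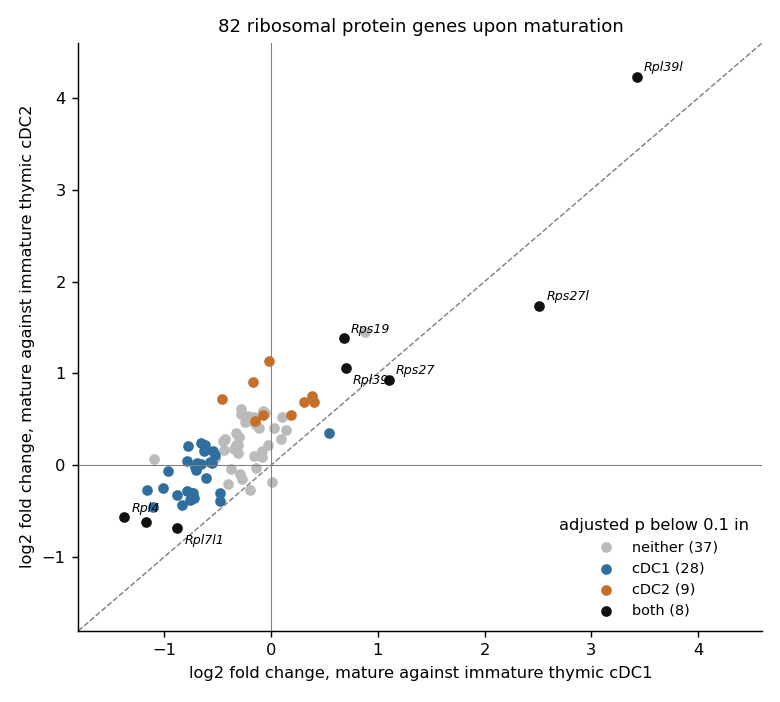
Log2 fold change of each of the 82 tested ribosomal protein genes upon maturation in thymic cDC1 (horizontal) and cDC2 (vertical), coloured by the comparison in which the adjusted p of limma was below 0.1, with some genes named; the dashed line marks equal change. Of the 82 genes, 77 lie above the line, and Rps27l is among the 5 below it.

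Thus 8 genes passed in both subsets, each in the same direction in both. Of the 82 genes, 5 rose in both, against 22% of all genes, and 3 fell in both, against 21.4%. Rpl39, Rpl39l, Rps19, Rps27 and Rps27l rose, and Rpl4 and Rpl7l1 were among those that fell. Under the 35 alternatives, the cDC1 call was lost under 7 for Rpl39 and under 6 for Rps19, and the cDC2 call under 2 for Rps27. These are 5 of the 6 that rose in cDC1 and 5 of the 14 that rose in cDC2, and 3 of the 30 and 3 of the 3 that fell. The difference between the maturation effects itself was tested, and passed in 6 genes, all of them more positive in cDC2. This is 7.32%, against 11.2% of all genes with a more positive effect in cDC2, and none was more negative, against 7.3%. They included Rpsa (difference in log2 fold change 1.07 ± 0.34, adjusted p = 0.040), Rps3 (0.84 ± 0.27), Rpl4 (0.81 ± 0.26), Rps6 (0.71 ± 0.27) and Rpl5 (0.67 ± 0.26). Over the 82 genes the median difference was 0.57, with 77 positive, against 0.11 for all genes. It was not tested, and the pooled SD between samples of the median log2 value was 0.34. None of the 6 passed in lane 8 alone or without immature thymic cDC2 replicate 1, and 1 passed without mature cDC1 replicate 1 or without mature cDC2 replicate 2.

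Compared directly, mature cDC2 had more of 8 genes than mature cDC1, or 9.76% against 21% of all genes, and less of 1, Rps27l, or 1.22% against 9.27%. They included Rpl29, Rplp2, Rpsa, Rpl15, Rps4x, Rpl4 and Rpl5. Rpl29 was at 2907, 3106 and 6682 in mature cDC1 and at 9705, 11383 and 5066 in mature cDC2, so that the groups overlapped (1.07 ± 0.39, adjusted p = 0.0519). The call was lost for every one of the 8 when mature cDC1 replicate 1, mature cDC1 replicate 2 or mature cDC2 replicate 2 was left out, and with the correction for gene length and GC content 2 genes were higher and 4 lower. Without mature cDC2 replicate 3, on the other hand, 23 were higher. Mature cDC1 and cDC2 differed in their median by 0.32, against 0.14 for all genes.

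Of the 5 tested paralogues, 2 rose and 1 fell in both subsets. Rps27l (ENSMUSG00000036781, chr9:66946086-66949516), a vertebrate paralogue of Rps27 known as a target of p53, was at 1648, 2184, 2937 and 1936 in immature thymic cDC1 and at 10917, 12237 and 13424 in mature thymic cDC1 (2.51 ± 0.21, adjusted p = 3.19e-09). In cDC2 it was at 1806, 1977 and 2221 in immature and 6008, 7962 and 6168 in mature thymic cells (1.74 ± 0.23, adjusted p = 2.81e-06). Mature and immature samples did not overlap in either subset, and the rise was called under all 35 alternatives. None of its 100-base windows is shared with another gene.

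Rps27l also differed between tissues and between subsets. In the spleen it was at 1712, 1106, 1196 and 1943 in cDC1 and 843, 853 and 551 in cDC2 (-0.98 ± 0.21, adjusted p = 0.00161). Thymic immature cDC2 had 1.44 ± 0.23 more on the log2 scale than splenic cDC2 (adjusted p = 0.000109), and the groups did not overlap. In cDC1 the difference between tissues was 0.55 ± 0.20 (adjusted p = 0.0790) with overlapping samples, and it was lost under 11 of 35 alternatives, among them without immature thymic cDC1 replicate 3. Between the mature subsets cDC2 were lower by 0.87 ± 0.23 (adjusted p = 0.00899), whereas the immature thymic subsets differed by -0.09 ± 0.21 (adjusted p = 0.844). The difference between the tissue effects was not past the threshold (0.89 ± 0.30, adjusted p = 0.12), nor was that between the maturation effects (-0.77 ± 0.31, adjusted p = 0.114).

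Rps27, the zinc finger protein of the 40S subunit and partner of Rps27l, rose too. It was at 11817 to 24027 in immature and 39158, 53072 and 25747 in mature cDC1 (1.10 ± 0.31, adjusted p = 0.00447), and at 12741 to 18655 and 27332 to 33043 in cDC2 (0.93 ± 0.33, adjusted p = 0.0255). Expressed per kilobase, Rps27l reached 1.62% to 2.74% of Rps27 in splenic cDC2, 3.79% to 5.73% in splenic cDC1, 6.70% to 9.64% in immature and 15.9% to 36.0% in mature thymic cDC1, and 6.69% to 10.7% and 13.8% to 16.7% in immature and mature thymic cDC2. Rps27 has 98.4% of its 100-base windows in common with 2 other genes, so that its part of the ratio is uncertain.

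Rpl39l, the paralogue of the small exit-tunnel protein Rpl39 known from testis, rose from near the detection limit. Its normalized reads count was 0 to 1.69 in immature thymic cDC1, 0 to 5.36 in immature thymic cDC2, 0 to 5.54 in splenic cDC1 and 0 to 8.24 in splenic cDC2. In mature cDC1 it was 18.4, 29.5 and 17.6, and in mature cDC2 48.4, 46.6 and 44.7. These are 49 reads in the mature against 5 in the immature cDC1 samples, a ratio of 16.6 (95% exact interval 6.65 to 53.4, counting error only), and 187 against 9 reads in cDC2, a ratio of 15.9 (8.20 to 35.3). The mature groups did not overlap any other group, and limma gave adjusted p-values of 0.00167 and 0.000645. With log2 fold changes of 3.43 ± 0.85 and 4.23 ± 0.91 it had the largest fitted rise of the 82 genes, but the size depends on the pseudocount, and lay between 1.67 and 4.17 in cDC1 and 2.44 and 4.89 in cDC2 over the alternatives. Even in mature cDC2, Rpl39l was 0.213% to 0.322% of Rpl39 per kilobase.

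Rpl39 itself was at 7458 to 15356 in immature and 13151 to 20540 in mature cDC1, which overlapped (0.70 ± 0.33, adjusted p = 0.0739), and at 7813 to 10844 and 15474 to 24410 in cDC2, which did not (1.06 ± 0.35, adjusted p = 0.0169). Rpl7l1, the paralogue of Rpl7 with a part in ribosome assembly, fell in both subsets, with 2211 to 2676 in immature and 1141 to 1596 in mature cDC1 (-0.88 ± 0.13, adjusted p = 7.43e-06) and 2400 to 2530 and 1502 to 1586 in cDC2 (-0.68 ± 0.14, adjusted p = 0.000398). Its partner Rpl7 did not pass in either (-0.08 ± 0.19 and 0.16 ± 0.20). Neither Rpl22l1 (0.01 ± 0.40 and -0.18 ± 0.42) nor Rpl22 (-0.03 ± 0.21 and 0.22 ± 0.22) passed. Rpl3l, known from striated muscle, rested on 0 to 55 reads per sample and did not pass. Its partner Rpl3, a core protein near the catalytic centre, fell in cDC1 (-0.83 ± 0.24, adjusted p = 0.00558) and did not pass in cDC2 (-0.43 ± 0.26). Rpl10, the partner of Rpl10l, fell in cDC1 (-0.55 ± 0.21, adjusted p = 0.0333), a call lost without immature thymic cDC1 replicate 3, and did not pass in cDC2 (0.02 ± 0.23). Rps4x, the X-linked gene for Rps4, fell in cDC1 (-0.74 ± 0.20, adjusted p = 0.00370).

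**Figure D3:**
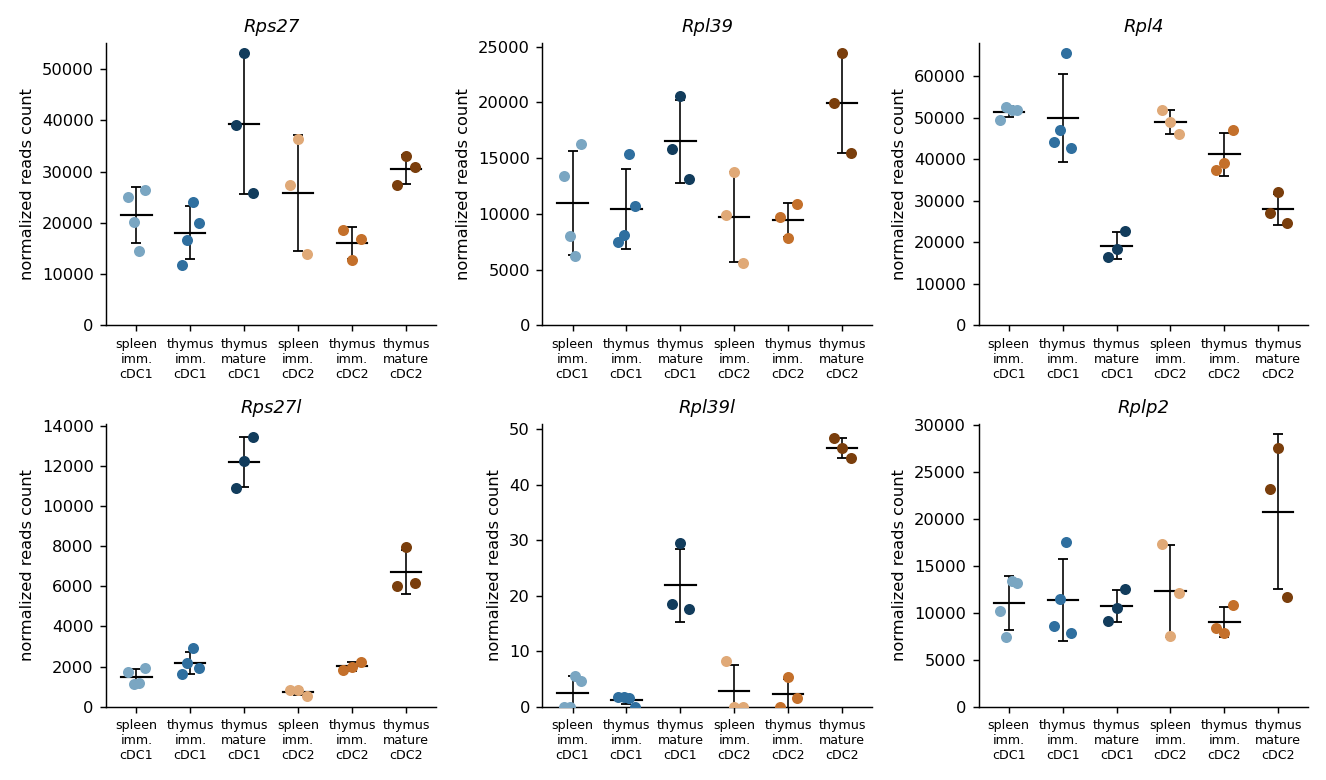
Normalized reads count of 6 ribosomal protein genes, 1 point per sample, with the group mean (line) and SD (bar) and each axis starting at 0; imm., immature. Rps27l and Rpl39l lay above all immature samples in both mature groups, Rpl4 below the immature thymic samples in both, and Rplp2 in mature cDC2 had values of 23145, 27595 and 11633.

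Between tissues, the immature cells differed little in these genes. In cDC1, 1 of the 82 genes passed, Rps27l, which is 1.22% of the genes, against 7.72% higher and 7.70% lower among all genes. In cDC2, 2 genes were higher in the thymus, Rps27l and Rpl7l1 (0.50 ± 0.14, adjusted p = 0.0139), or 2.44%, against 14.9%, and none was lower, against 11.6%. Rpl7l1 was at 2400, 2435 and 2530 in the thymus and 1519, 1796 and 1925 in the spleen, without overlap. The medians were -0.08 in cDC1 and -0.23 in cDC2, with 62 and 68 of the 82 genes negative, both against 0.00 to 0.02 for all genes. In cDC2 the median depended on the lane. It was -0.44 in lane 5 (1 thymic and 2 splenic samples) and -0.05 in lane 8 (2 thymic and 1 splenic), where 38 genes were positive and 44 negative. In cDC1 it was -0.24 in lane 5 and -0.14 in lane 8. The difference between the tissue effects in cDC2 and cDC1 passed the threshold in 0 of the 82 genes by limma (against 3.96% of all genes more positive and 2.29% more negative in cDC2), with 1 at an unadjusted p below 0.05 and 0 by edgeR and 1 by DESeq2 past the adjusted threshold. With the correction for gene length and GC content, 17 genes were lower in thymic cDC2. The share of all genes with this correction is not given, so that the 17 have no background beside them.

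Between immature subsets, the number of genes that passed depended on the correction for gene length and GC content, with which 11 genes in the spleen and 25 in the thymus were lower in cDC2. The shares of all genes below are those without this correction, and none is given with it. Without it, in the spleen, 4 genes were lower in cDC2 than in cDC1 (4.88%, against 13.4% of all genes) and none higher (against 16%), namely Rps27l, Rpl13a (-0.58 ± 0.21, adjusted p = 0.0540), Rpl14 (-0.47 ± 0.18, adjusted p = 0.0617) and Rpl7l1 (-0.33 ± 0.13, adjusted p = 0.0709). In each of these the splenic cDC2 samples lay below all splenic cDC1 samples, but without splenic cDC2 replicate 3, or without the combined splenic cDC1 replicates 4 and 5, 1 gene was left. In the thymus, Rpl17 (-0.52 ± 0.20, adjusted p = 0.0773) and Rps3 (-0.45 ± 0.18, adjusted p = 0.0917) were lower in cDC2, or 2.44%, against 10.5% of all genes, and none was higher, against 15.5%. Neither passed without immature thymic cDC1 replicate 3, without immature thymic cDC2 replicate 1 or 2, or in lane 8 alone.

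Of 4 tested ribosomal protein genes that the name rule does not reach, 2 fell in mature cDC1 and 1 rose in mature cDC2. Rack1 (Gnb2l1 in the files), a scaffold protein of the 40S subunit, fell in mature cDC1 (-0.89 ± 0.25, adjusted p = 0.00531) and not in cDC2 (-0.07 ± 0.27). Fau, the fusion gene for the 40S protein S30, did not pass in cDC1 (0.14 ± 0.37) and rose in mature cDC2 (1.03 ± 0.40, adjusted p = 0.0378). Rpl36al was lower in mature cDC1 (-2.24 ± 0.65, adjusted p = 0.00570), from a mean of 72.7 ± 8.98 (SD, n = 4) to 27.2 ± 29.1 (SD, n = 3). The row under the identifier of Rpl24 (named RPL24) was at group means of 8.63 to 46.0 normalized reads.

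The genes that build the ribosome had larger changes than those of its proteins. Of 44 ribosome biogenesis genes, such as those of RNA polymerase I and of rRNA processing, 39 fell and 2 rose in mature cDC1 (median log2 fold change -2.40), and 36 fell and 4 rose in mature cDC2 (median -1.55), against -0.04 and 0.04 for all genes. Fbl, the methyltransferase of box C/D snoRNPs, fell in cDC1 (log2 fold change -3.01) and in cDC2 (-1.78), and so did Polr1a, the largest subunit of RNA polymerase I (-4.54 and -3.34). Polr1d and Sbds, which acts late in 60S maturation, rose in both (Sbds 1.58 and 1.15, Polr1d 0.64 and 0.94).

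The mRNAs of translation factors that, like ribosomal protein mRNAs, carry a TOP tract had medians near those of the ribosomal protein genes. Of 16, 8 fell and 1 rose in mature cDC1 (median -0.32), and 1 fell and 2 rose in mature cDC2 (median 0.20). Eef2, the elongation factor of translocation, fell in cDC1 (-0.76, adjusted p = 0.0266) and did not pass in cDC2 (0.28), whereas Eif4b rose in both (0.61 and 1.19). Of 74 mitochondrial ribosomal protein genes, 53 fell and 8 rose in mature cDC1 (median -0.68), and 30 fell and 8 rose in mature cDC2 (median -0.30). Among all genes, 33.7% fell and 30.4% rose in cDC1, and 25.5% fell and 27.7% rose in cDC2.

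Among 16 tested genes that control growth and ribosome supply, 6 fell and 4 rose in cDC1, and 8 fell and 5 rose in cDC2. Set against the same shares of all genes, the counts in cDC1 were near the background. Myc, the transcription factor that drives ribosome biogenesis genes, fell in cDC1 (log2 fold change -5.09) and in cDC2 (-2.32), Mycl fell as well (-5.50 and -3.40), and the Myc antagonist Mxd1 rose (5.57 and 3.90). All 15 proliferation genes fell in both subsets (medians -3.09 and -2.56). In bulk samples, fewer cells of a type and less RNA per cell cannot be told apart.

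**Figure D4:**
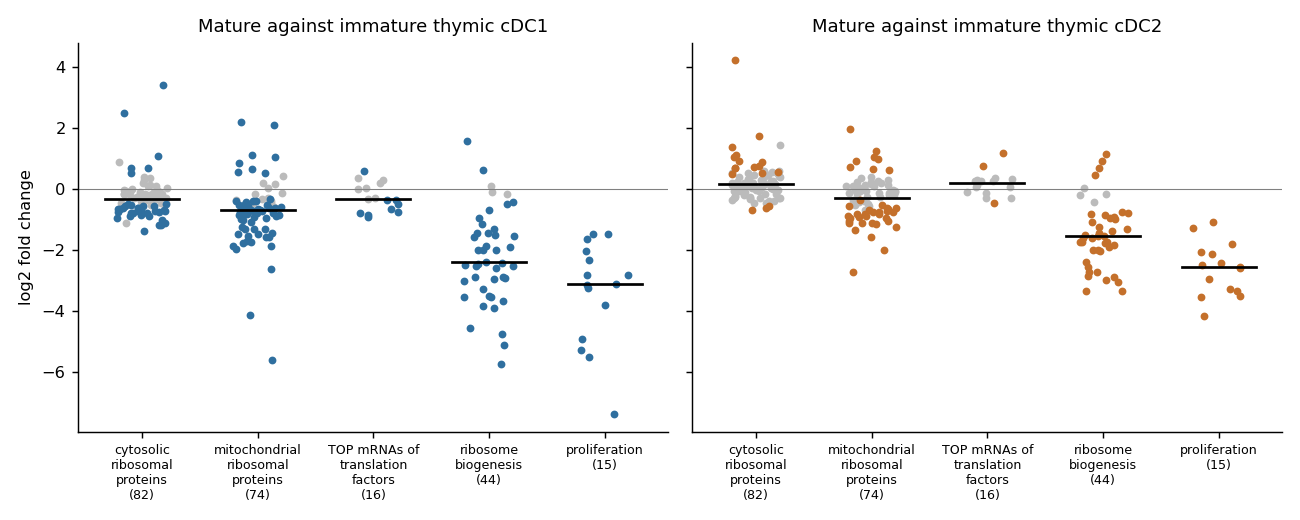
Log2 fold change upon maturation in thymic cDC1 (left) and cDC2 (right) of each tested gene of 5 lists, coloured where the adjusted p of limma was below 0.1 and grey otherwise; lines are medians and the number of genes is in parentheses. The median of the cytosolic ribosomal protein genes was -0.31 and 0.18, against -2.40 and -1.55 for ribosome biogenesis genes.

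Between the tissues, 0 of 44 biogenesis genes were higher and 1 was lower in thymic than splenic immature cDC1, and no mitochondrial ribosomal protein gene passed the threshold. Of the 15 proliferation genes, 5 were higher in thymic cDC1 (median 0.50) and 6 in thymic cDC2 (median 0.54), and none was lower. In cDC2, 26 of 74 mitochondrial ribosomal protein genes were higher in the thymus and none was lower (median 0.45). Of the 120 tested processed copies of ribosomal protein genes 6 rose and 8 fell in mature cDC1 and 5 rose and 3 fell in mature cDC2.

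Markers of other cells moved with some of these comparisons. The summed T cell markers were at 201 to 254 normalized reads in immature and 1648 to 2677 in mature thymic cDC1, and at 220 to 344 and 910 to 1485 in cDC2, and all 9 rose in both. In the spleen the sums were 33.1 to 95.2. The macrophage markers summed to 916 to 1281 in immature and 77.4 to 341 in mature cDC1, where 1 of 5 rose and 2 fell, and to 15350 to 20537 and 1751 to 13926 in cDC2, where 0 rose and 1 fell. The value of 1751 is that of mature cDC2 replicate 3. Thymic epithelial markers summed to 597 to 711 and 1805 to 2579 in cDC1 and to 3507 to 3877 and 3817 to 4878 in cDC2, and 2 and 4 of 6 rose and 1 fell in each. These sums combine opposite moves of Epcam and Aire. Epcam reached at most 663 in immature and 226 in mature cDC1, and 3715 and 426 in cDC2. Aire reached at most 21.96 in immature and 2053 in mature cDC1, and 60.7 and 3978 in cDC2. Of the B cell markers 3, of the plasmacytoid DC markers 4, of the erythroid markers 2 and of the NK cell markers 1 passed the filter, and in mature cDC1 1, 1, 0 and 0 of these rose and 0, 3, 0 and 0 fell. In mature cDC2, 1 B cell marker rose and 1 fell, and 1 plasmacytoid DC marker rose and 3 fell, with plasmacytoid DC sums of 2787 to 3315 in immature and 5631 to 8326 in mature cells. The highest value of Spib was 1738 in immature and 8134 in mature cDC2, whereas that of Siglech was 1120 and 40.8 and that of Ccr9 681 and 354. No neutrophil marker passed the filter. Between the tissues, all 3 B cell markers were lower in thymic cDC1, with sums of 566 to 984 in the spleen and 106 to 139 in the thymus, and 2 were lower in thymic cDC2. The NK cell markers summed to 99.4 to 180 in splenic and 4.02 to 7.79 in thymic cDC2, and the 1 tested was lower there. Both tested erythroid markers were lower in the thymus in both subsets. Of the thymic epithelial markers, which summed to 57.2 to 79.3 in splenic cDC1 and 96.1 to 156 in splenic cDC2, 4 and 6 of 6 were higher in the thymus, as were 8 and 6 of the 9 T cell markers. Of the plasmacytoid DC markers, 1 was higher and 1 lower in thymic cDC1 and 3 were higher in thymic cDC2, and of the macrophage markers 0 and 2 were higher. The part of these cells in the results was not tested.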

How the data were processed

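RNA was sequenced from sorted cDCs in 21 libraries. The methods and the submitters' processing notes state that the authors used Cutadapt for trimming, STAR 2.6 for alignment (mm10), HTSeq-count for counts of each Ensembl gene, and DESeq2 1.24.0 for size factors. The deposited values are thus a signal, the read count of a gene divided by the size factor of its library. The Ensembl release and strand setting are not given in the sources used here. Whole reads were recovered from the steps of each library (tolerance 0.01 reads), and depth was 14266867 to 40119669 reads. The design named limma on these values because they are not counts.

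Log2 of the value plus a pseudocount of 1 was fitted over all 6 groups with limma 3.58.1 (R 4.3.3, eBayes with an intensity trend), for the 14970 genes that reached a value of 10 in 3 or more samples. Genes with a Benjamini-Hochberg adjusted p below 0.1 were called, and adjusted p-values are from this fit unless another tool is named. Fold changes are on the log2(value + 1) scale and understate those of low genes. The scripts were tested on simulated data. Alternatives were edgeR 4.0.16 and DESeq2 1.42.0 on the recovered reads, other scalings, filters, pseudocount, lanes, a block and leaving out each sample. The members and gene lists were chosen with earlier results of these data known. Genes were named by rule: up to 5 rises and 5 falls among those called per comparison, the paralogues with their partners, the stalk genes and Rpsa, Rps6, Rpl5, Rpl11 and Rps19, the 5 highest and lowest levels per kilobase, and up to 3 called differences between effects. Other genes that passed were named after their values were seen. Gene names, lengths and shared sequence came from GENCODE M21, and promoters from RefSeq. Some genes that the rule names are not reported here. Intervals cover counting error only.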

Additional observations from a re-analysis of the deposited data

Results flagged for a closer look

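In 3 of the 68 groups of 4 samples examined, 1 sample lay far from the other 3. These groups are genes within the same samples and not independent, so that no chance rate is set against the count. In immature thymic cDC1 replicate 3, 79 of the 82 genes lay above their mean over all samples. Rpl5 was at 32068 normalized reads in immature thymic cDC1 replicate 3 and at 20004 to 21784 in the other samples of the group. Rps19 was at 22475 in the same sample, against 10307 to 11491. Rpsa was at 58586 in splenic cDC1 replicate 3, against 47997 to 49666.

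The maturation effect differed between cDC2 and cDC1 by a test of the difference in log2 fold change (limma) for Rpsa (1.07), Rps3 (0.84) and Rpl4 (0.81), each more positive in cDC2.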

How the results depend on the processing

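Of 51 calls of named genes, 29 held under all 35 alternatives, 22 were lost under at least 1 and 0 changed sign. The counts of called genes moved more, and the cause was not tested. The shares of all genes given above are those of the main limma fit, and none is given for the alternatives. In mature against immature cDC1 (36), scaling to the library total gave 61, a 2-fold criterion 8 and leaving out 1 sample 25 to 37. In cDC2 (17, of which 14 rose), library total gave 23 with 16 of them lower, the 2-fold criterion 5, the length and GC correction 32 and leaving out 1 sample 11 to 28. Thymic against splenic cDC1 (1) gave 0 with all 21 libraries, TMM without ribosomal protein genes, no filter, only the groups compared, 2-fold, lane as covariate or lane 8, and 3 with 2 of them lower under the length and GC correction. Leaving out 1 sample gave 0 to 2, with both lower without immature thymic cDC1 replicate 3. In cDC2 (2) DESeq2 gave 6 with 4 lower, 2-fold 1, 1 sample per leading number 4, the length and GC correction 19 with 17 lower, and leaving out 1 sample 2 to 5, with 3 lower without splenic cDC2 replicate 2 or 3. Splenic cDC2 against cDC1 (4) gave 0 with 2-fold, 1 in lane 8, 11 with the length and GC correction and 1 to 4 when 1 sample was left out. Immature thymic cDC2 against cDC1 (2) gave 4 by edgeR, 5 by DESeq2, 25 with the length and GC correction, 1 with lane as covariate, 0 with library total, no filter, 2-fold, lane 8 or 1 sample per leading number, and 0 to 6 without 1 sample. Mature cDC2 against cDC1 (9) gave 19 with library total, 1 with 2-fold, 6 with 4 lower under the length and GC correction, and 1 to 24 without 1 sample. The only gene left without mature cDC1 replicate 1 or 2 or mature cDC2 replicate 2 was lower in cDC2. It gave 15 without immature thymic cDC1 replicate 3, 3 without mature cDC2 replicate 1 and 18 without mature cDC1 replicate 3. The difference between maturation effects (6) gave 3 with no filter, 1 with 2-fold, 0 in lane 8 and 0 to 15 without 1 sample (15 without mature cDC2 replicate 3, 13 without mature cDC1 replicate 3). The difference between tissue effects (0) gave 1 with all 21 libraries, DESeq2, library total or the length and GC correction, and 0 to 1 without 1 sample. An alternative chosen after seeing the data left out both same-label immature thymic cDC1 libraries. It gave 1 lower gene for tissue in cDC1, 0 for immature thymic subsets, 3 for the difference between maturation effects and 1 for that between tissue effects. Counting the row named Rpl24, also chosen after seeing the data, gave 18 in place of 17 in cDC2 maturation and changed no other count.

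With the leading number as a replicate block, the counts were 36 in cDC1 and 16 in cDC2 maturation, 1 in place of 0 for the difference between tissue effects and 7 in place of 6 for that between maturation effects. The samples share only a number: not every same-numbered pair had deviations correlated above 0.1 (-0.15 to 0.46). Reads limit Rpl39l and Rpl3l most, and sequence shared with other genes limits 32 members.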
